A study of Homo sapiens with 6 samples.

Results

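The regions described here were open chromatin intervals that ranked higher after Zn2+ chelation than in untreated cells. From the list of open regions of each library, the 18887 regions with the highest score on chromosomes 1 to 22 and X were kept, and overlapping or touching regions were merged over the 6 libraries. A merged region counted as opened by the chelator when both TPA lists overlapped it and neither control list did. This rule found 982 of 26162 merged regions, or 3.75%, and by the reverse rule 1182 regions were closed. The ranks that chose the regions are given as description only, without a test.

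Accessible chromatin was profiled by ATAC-seq, which uses the Tn5 transposase to cut exposed DNA, in MCF10A cells, an established and non-tumorigenic human mammary epithelial line. Control cells were untreated, TPA cells received 50 μM tris(2-pyridylmethyl)amine, a cell-permeable Zn2+ chelator, and ZnCl2 cells received 30 μM ZnCl2, each for 30 min. All groups were first held for 30 min in a phosphate-free buffered salt solution. Each group had 2 libraries, and their lists held 35900 and 41374 regions with TPA, 25025 and 44637 in the controls, and 38055 and 18883 with ZnCl2. The second ZnCl2 list was 4 regions shorter than the limit and was kept whole. No read counts were analysed here, so the depth is unknown, and the score, a whole number of at least 30 in every list, was used only to order regions within a list. With 2 libraries against 2, a two-sided exact permutation test cannot give a p below 0.333. All coordinates are on hg38.

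Open chromatin marks promoters, where transcription starts, and distal enhancers, where transcription factors bind far from a start site. In epithelial cells many distal enhancers carry the letters bound by AP-1, a dimer of FOS, JUN, ATF or MAF proteins, and AP-1 is induced within minutes by growth factors and stress. Zn2+ holds together the DNA-binding fingers of a large class of transcription factors and is buffered in the cell by metallothioneins, importers of the SLC39 family and exporters of the SLC30 family.

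The cell type label was checked at the start sites of 8 genes of mammary basal epithelium in the full lists. The start sites of ITGA6 and LAMB3, an integrin and a laminin chain of basal cells, were open in 6 of 6 libraries. KRT5 and EGFR were open in 5, KRT14 in 4, CDH1 in 3 and EPCAM in 1, and at TP63, of which only the outermost annotated start site was examined, no library had a call. Of 8 genes of other cell types, 7 were open in none of the libraries, and SYP, a neuronal vesicle gene, was open in 4.

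Sequences are shown first, because a short motif, the AP-1 letters, was found in over 50% of opened regions within the central 400 bases. Over all merged regions the share was 31.4%, or 43.5% when weighted to the GC content of the opened ones. In a window of 200 bases the share of opened regions was 35.3%, and the other classes were not recomputed. The central 200 bases of the best call are given on the plus strand for 4 of the highest ranked regions without a repeated piece, near KCNN4 (chr19:43781216-43781415), ABTB2 (chr11:34263591-34263790), LAPTM5 (chr1:30756666-30756865) and TBPL1 (chr6:133952866-133953065). Capitals mark the AP-1 letters TGANTCA in KCNN4, ABTB2 and LAPTM5. In TBPL1, whose window had no AP-1 match, they mark a match to TGCNCNC on the minus strand. That pattern is looser than the metal response element, so the stretch is not called one.
KCNN4: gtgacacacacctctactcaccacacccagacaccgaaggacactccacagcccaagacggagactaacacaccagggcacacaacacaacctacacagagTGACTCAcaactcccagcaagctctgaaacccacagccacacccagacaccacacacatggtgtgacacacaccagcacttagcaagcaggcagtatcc
ABTB2: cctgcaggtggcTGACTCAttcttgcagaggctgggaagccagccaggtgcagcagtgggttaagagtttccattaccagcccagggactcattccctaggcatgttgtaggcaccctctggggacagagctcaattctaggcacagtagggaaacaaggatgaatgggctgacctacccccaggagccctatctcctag
LAPTM5: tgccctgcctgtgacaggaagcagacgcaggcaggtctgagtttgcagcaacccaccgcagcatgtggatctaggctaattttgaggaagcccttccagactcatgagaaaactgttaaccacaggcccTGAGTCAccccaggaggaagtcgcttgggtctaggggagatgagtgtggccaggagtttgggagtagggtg
TBPL1: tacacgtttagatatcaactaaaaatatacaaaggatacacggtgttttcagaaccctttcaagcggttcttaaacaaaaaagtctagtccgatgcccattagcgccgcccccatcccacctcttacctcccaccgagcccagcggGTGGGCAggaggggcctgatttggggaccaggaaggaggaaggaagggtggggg

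Shorter windows of 31 bases show the AP-1 letters of 8 opened regions nearest to genes of the signaling, stress and adhesion lists. These 8 were chosen for display after their values were seen. All are on the plus strand of hg38, with the AP-1 letters in capitals.
MAFF, chr22:38178191-38178221: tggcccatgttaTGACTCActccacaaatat
DUSP5, chr10:110414679-110414709: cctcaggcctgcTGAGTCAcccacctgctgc
KLF6, chr10:3763346-3763376: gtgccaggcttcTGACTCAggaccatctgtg
ERRFI1, chr1:8040753-8040783: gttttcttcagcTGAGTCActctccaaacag
EGFR, chr7:55065605-55065635: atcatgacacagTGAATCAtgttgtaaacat
CDH1, chr16:68756378-68756408: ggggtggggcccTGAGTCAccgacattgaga
HSPB1, chr7:76300383-76300413: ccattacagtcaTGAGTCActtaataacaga
NFKBIA, chr14:35365635-35365665: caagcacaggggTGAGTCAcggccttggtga

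The name "opened" had to be limited when the full lists were read. Of the 982 regions, 962 (98.0%) had a lower ranked call in a full control list, and 20 had none. Control replicate 2, the longest list, held a call at 960 of them (97.8%, against 98.4% of all merged regions), and control replicate 1 at 567 (57.7%, against 83.6%). The higher rank with TPA was fixed by the rule, and "opened" is used only in that sense. Most of these regions were already called open in untreated cells. In these bulk libraries, a site open in more cells and a site more open in each cell cannot be told apart.

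In the full lists, where rank 1 is the highest score, the median rank of the opened regions was 15072.5 and 14963.5 in the TPA libraries. Among the regions with a control call it was 21483 in control replicate 1 and 23097 in control replicate 2. Few opened regions were among the strongest of the genome. The worse of the 2 TPA ranks was at most 10000 in 46 (4.68%), and its quartiles were 14540.2, 16523 and 17761. For 241 regions (24.5%) the better control rank was under 20000, just beyond the limit. The last 3 inside the limit lay near PDLIM1, IRX4 and C1orf105, with worse TPA ranks of 18882, 18881 and 18878. The first 3 outside it, near OR6S1, MYZAP and ACSBG1, had ranks of 18890, 18900 and 18901. All 4 libraries of the contrast bore on the count. It was 2015 without TPA replicate 1, 1990 without TPA replicate 2, 1785 without control replicate 1 and 1981 without control replicate 2, where a single library then decided for its group.

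**Figure D1:**
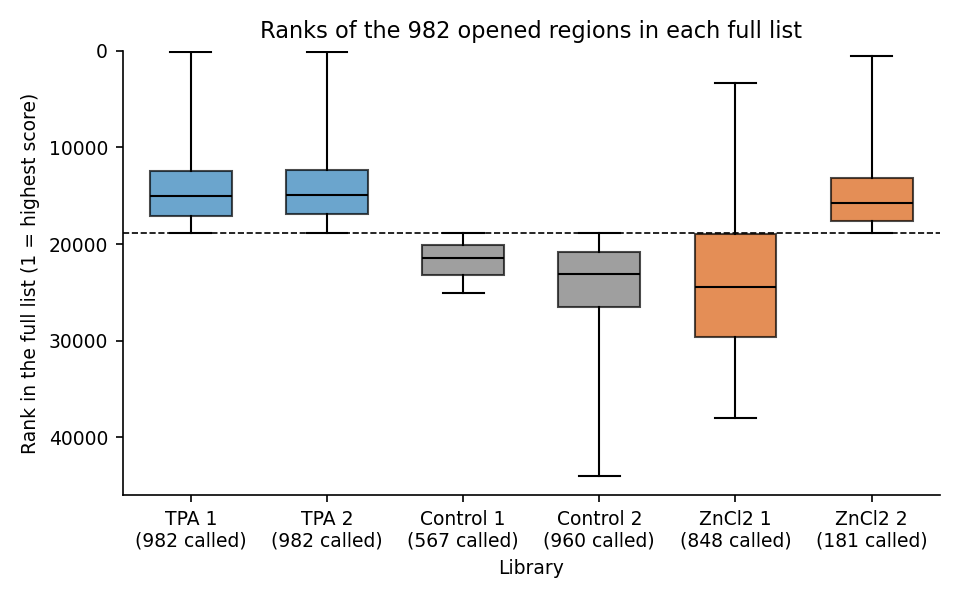
Rank of the 982 opened regions in the full list of each library (y axis, rank 1 at the top), with the number of regions that had a call under each library name on the x axis. Boxes span the quartiles with the median as a line, whiskers reach the lowest and highest rank, and the dashed line is the limit of 18887. The TPA boxes lie above the line and the control boxes below it by the rule. The median in ZnCl2 replicate 1 was 24411.5, and the ZnCl2 replicate 2 list ended at the line.

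The 10 opened regions with the best TPA ranks differed in whether their central 400 bases held repeated sequence. The first 5, near ZMYND11, CFAP99, METTL14, ANXA8 and NPIPB11, all held 50-base pieces that occur more than once in hg38, and the other 5 held none. The region downstream of ZMYND11, a reader of a methylated histone, at chr10:264101-265450 ranked 80 and 122 with TPA, 24821 and 25388 in the controls, and 11310 and 7446 with ZnCl2. The intronic CFAP99 region at chr4:2429621-2430720 ranked 237 and 116 with TPA, had a call only in control replicate 2 at rank 26256, and ranked 11024 and 15497 with ZnCl2. Upstream of METTL14, a subunit of the RNA m6A methyltransferase, all 8 pieces of the window at chr4:118620301-118620890 were repeated, up to 16 times. That region ranked 788 and 379 with TPA and 2233 in ZnCl2 replicate 2, and no other library had a call. The exonic ANXA8 region at chr10:47483091-47484670, in a gene of the annexin family, ranked 1825 and 1587 with TPA and 6450 and 10459 with ZnCl2, without a control call. Reads from repeated sequence can be placed at any of its copies, so the position of these 5 is uncertain.

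The remaining 5 regions had no repeated piece in the central 400 bases, and sequence outside that window was not examined. TBPL1 encodes a relative of the TATA-binding protein, and the region over its promoter and first intron at chr6:133951761-133954350 ranked 4385 and 4476 with TPA, 19042 and 19313 in the controls and 21015 in ZnCl2 replicate 1. UBXN6 encodes a cofactor of the p97 ATPase, and its promoter region at chr19:4457511-4458300 ranked 3176 and 4617 with TPA, 34750 in control replicate 2 and 23939 in ZnCl2 replicate 1. The KCNN4 promoter, of a calcium-activated potassium channel, was part of a region at chr19:43778951-43781960 with ranks 5612 and 4255 with TPA, 21763 and 24908 in the controls and 14958 in ZnCl2 replicate 1. An intron of ABTB2 held a region at chr11:34263211-34264090 with ranks 6141 and 4986 with TPA, 28677 in control replicate 2 and 31534 in ZnCl2 replicate 1. The fifth lay downstream of CLXN, at chr8:48628341-48629540, and ranked 4498 and 5570 with TPA, 21102 and 20816 in the controls and 17440 in ZnCl2 replicate 1. None of these 5 was called in ZnCl2 replicate 2, the shortest list. In each of them both TPA ranks were better than the rank in ZnCl2 replicate 1. These 5 were chosen by their TPA ranks, so nothing is read from this. LAPTM5, which encodes a lysosomal membrane protein of blood cells, was the next promoter by rank. Its region at chr1:30754861-30758160 ranked 6352 and 7825 with TPA, 23078 and 19392 in the controls, and 13787 and 13127 with ZnCl2.

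Opened regions were mostly distal. Their median distance to the nearest start site of a protein-coding gene was 46191.5 bases (quartiles 13438.8 and 125320), against 18268 bases for all merged regions and 1290.5 for the closed ones. With the start sites of all annotated genes it was 22025 bases for the opened regions, and the other classes were not recomputed. Of the 982, 778 (79.2%) lay more than 10 kb from the nearest protein-coding start site, against 57.9% of all merged regions. More than 100 kb away lay 296 (30.1%), against 19.4%. A promoter, here the 1000 bases upstream of a gene's start site, was overlapped by 115 (11.7%), against 36.6% of all merged and 58.0% of closed regions. With all regions of every list in place of the equal length, the share of opened regions was 5.25%, and the other classes were not recomputed. By the center of the best call, 511 opened regions (52.0%) were intronic and 354 (36.0%) outside genes, while 83 (8.45%) were exonic and 34 (3.46%) in a promoter. For all merged regions these shares were 42.4%, 26.3%, 18.4% and 12.9%. The opened regions were also narrow. Their median width was 1320 bases (quartiles 1022.5 and 1880), against 2270 for all merged and 2815 for closed regions. A merged region can widen with each list that holds it, and the widths of the best single call were closer, with medians of 1105, 1510 and 2040 bases. No test was made of these differences, since the regions were chosen by calls in the same libraries and are not replicates.

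In base composition the opened regions were AT-rich. Their median GC content was 45.1% (quartiles 40.9% and 50.4%), against 49.6% for all merged regions, 55.2% for closed regions and 52.9% for the 834 regions opened by ZnCl2 under the same rule. The ratio of observed to expected CpG, which is high in CpG islands, had a median of 0.220 in opened, 0.342 in all merged and 0.704 in closed regions. In the central 400 bases of the best call, 197 opened regions (20.1%) had under 40% GC, against 9.75% of all merged regions, and 172 (17.5%) had at least 55%, against 47.2%. The lists themselves differed in composition. The median GC of that window over all kept regions was 54.5% and 53.25% with TPA, 57.5% and 55% in the controls and 59% and 56.25% with ZnCl2. Both TPA lists were below both control lists, and whether the composition of the libraries had a part in the choice of regions was not tested.

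**Figure D2:**
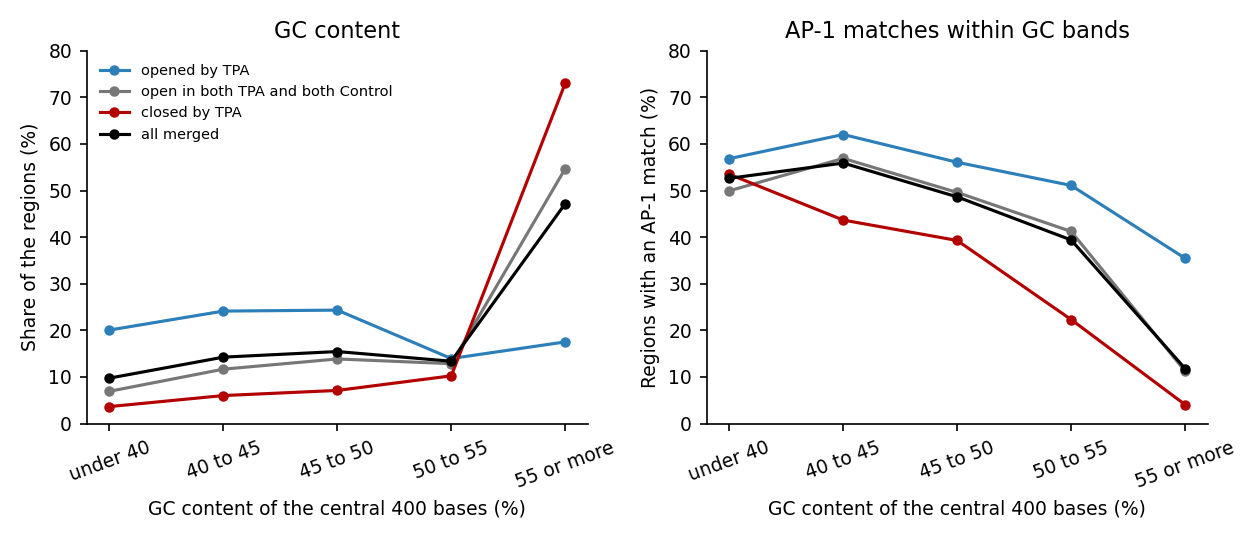
Share of regions in each band of GC content (left, y axis in percent) and share of regions with an AP-1 match within each band (right, y axis in percent), by GC content of the central 400 bases (x axis, bands in percent). Lines stand for opened, closed, shared and all merged regions. Opened regions were spread over the lower bands, with 17.5% at 55% GC or more against 73.0% of closed regions, and in every band their AP-1 share was above that of all merged regions.

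Of 16 motifs searched, AP-1 letters were the one most raised in opened over all merged regions in percentage points, and the GC box the one most lowered. The letters TGANTCA, which read the same on both strands, were present in the central 400 bases of 524 opened regions (53.4%). The share was 31.4% of all merged regions, 28.4% of the 13165 regions shared by both TPA and both control lists, 26.1% of regions opened by ZnCl2 and 12.6% of closed regions. At least 2 matches were found in 139 opened regions (14.2%, against 8.44% of all merged). The form TGACTCA or its reverse complement TGAGTCA was in 423 (43.1%, against 25.4%). With a window of 200 bases in place of 400, TGANTCA was in 35.3% of opened regions, and the other classes were not recomputed. The matches were concentrated at the center. In 50-base bins, 11.6% of opened regions had a match centered 25 bases to one side of the middle of the best call, against 2.65% at 475 bases on the other side, and for all merged regions these shares were 6.20% and 1.79%.

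**Figure D3:**
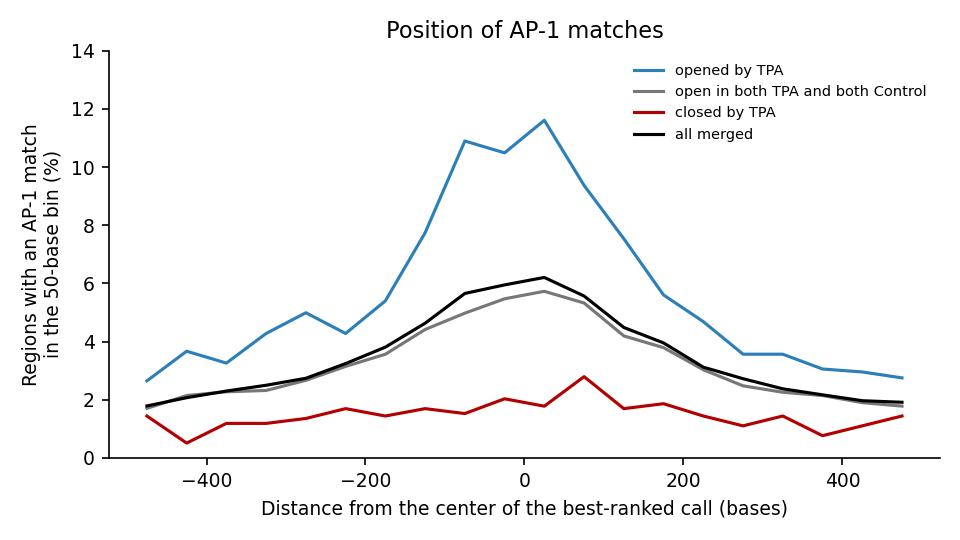
Share of regions with an AP-1 match in each 50-base bin (y axis, percent) by distance of the bin from the center of the best-ranked call (x axis, bases), for opened, shared, closed and all merged regions. The line of the opened regions rises from 2.65% at the left edge to 11.6% next to the center, where all merged regions reach 6.20%.

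The AP-1 share moved with GC content, and so it was read within bands. Under 40% GC it was 56.9% in opened and 52.6% in all merged regions. The shares were 62.0% and 55.9% from 40% to 45% GC, 56.1% and 48.6% from 45% to 50%, and 51.1% and 39.4% from 50% to 55%. At 55% GC or more they were 35.5% and 11.8%. With all merged regions weighted to the GC bands of the opened ones, their AP-1 share was 43.5% in place of 31.4%, and that of closed regions 34.7% in place of 12.6%. The gap to all merged regions was 21.9 percentage points before and 9.91 after this weighting, which was chosen after the values were seen. How far GC content accounts for the AP-1 share was not tested beyond these bands. By place, the share was 55.4% of opened against 37.9% of all merged regions in introns, 58.2% against 46.7% outside genes and 36.1% against 11.97% in exons. Among the 34 opened regions centered in promoters, 5 (14.7%) had a match, against 6.74%. Leaving out regions with repeated pieces gave 54.1% against 31.7%. Where the worse TPA rank was beyond 14540.2, the share was 52.99% of opened and 28.5% of shared regions. It was 39.2% of all merged regions beyond that rank, which also include regions outside a kept TPA list.

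Over the whole kept lists, AP-1 letters were more frequent in both TPA libraries than in any other. They were in 34.4% and 34.7% of the regions with TPA, 30.2% and 24.0% in the controls, and 23.5% and 23.9% with ZnCl2. Beyond rank 10000, where most opened regions lay, the shares were 38.9% and 40.5% with TPA, 38.1% and 30.6% in the controls, and 30.3% and 31.0% with ZnCl2. There, control replicate 1 was nearer to the TPA libraries than to the other control. The TPA lists contain the opened regions, so these values are not a separate measurement.

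Of the other motifs, 5 were more frequent in opened than in all merged regions by at least 3 percentage points. C/EBP letters (TTGCNNAA) were in 24.4% against 16.5%, RUNX letters (TGTGGT) in 29.7% against 22.7%, GATA letters (AGATAA) in 20.1% against 13.4%, the CCAAT box (CCAAT) in 41.5% against 36.7% and TEAD letters (GGAATG) in 26.2% against 22.8%. Weighted to the GC bands of the opened regions, all merged regions had 22.5%, 27.6%, 19.5%, 41.6% and 26.9%, so that the order turned for the CCAAT box and TEAD, and the differences of C/EBP, RUNX and GATA became 1.93, 2.102 and 0.61 percentage points. The GC box (GGGCGG), bound by SP factors at CpG-rich promoters, was in 12.5% of opened, 36.3% of all merged and 59.1% of closed regions, and in 17.7% of all merged regions after weighting. The letters TGCNCNC were in 51.9% of opened and 62.9% of all merged regions, and in 52.6% after weighting. They are a loose form of the metal response element of the Zn2+ sensor MTF1, and most matches need not be that element. ETS letters (CCGGAAG) were in 3.77% against 7.33%, the NRF1 core in 1.22% against 3.08% and the CTCF core in 2.44% against 3.81%. After weighting, all merged regions had 3.89%, 1.28% and 2.73%, close to the opened ones. The rarer p53 family, glucocorticoid receptor, E-box (CACGTG), CRE (TGACGTCA) and forkhead (TGTTTAC) letters differed by less than 1 percentage point before weighting. After it, E-box letters were in 7.13% of opened against 5.49% of all merged regions and forkhead letters in 4.48% against 6.51%. Every motif was searched on both strands of equal windows, matches of different motifs could overlap, and a match is not a bound site.

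**Figure D4:**
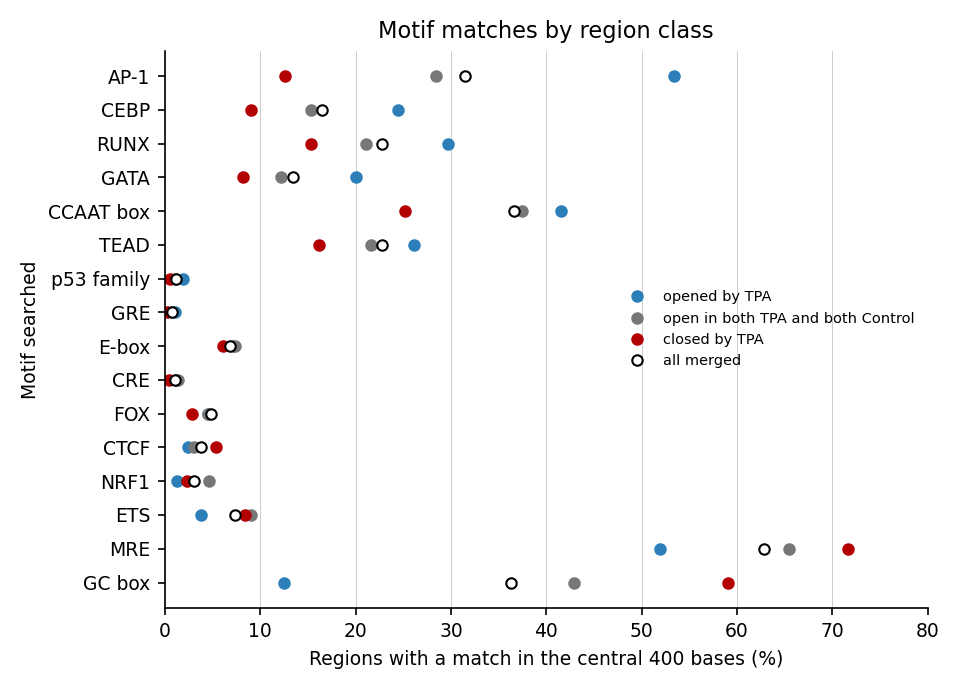
Share of regions with at least 1 match in the central 400 bases (x axis, percent) for each of 16 motifs (y axis, ordered by the difference between opened and all merged regions). Points stand for opened, shared, closed and all merged regions. Opened regions exceed all merged regions most for AP-1 (53.4% against 31.4%) and fall below them most for the GC box (12.5% against 36.3%).

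The ZnCl2 libraries were not used to choose the regions, apart from the merging, but they were set beside the same control lists. At equal list length, ZnCl2 replicate 1 called 210 opened regions (21.4%, against 69.4% of all merged) and ZnCl2 replicate 2 called 181 (18.4%, against 69.7%). Both called 97 (9.88%, against 59.3%), and 688 (70.1%, against 20.2%) were in neither. Of the closed regions, 84.3% and 82.5% were in the ZnCl2 lists. A region with no TPA and no control call is in the merged set only because a ZnCl2 list holds it, which raises the share of all merged regions. Among regions open in both TPA lists, the ZnCl2 shares followed the number of control lists. They were 21.4% and 18.4% with none, 46.9% and 49.7% of 1768 regions with 1, and 90.2% and 90.1% of 13165 regions with both.

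**Figure D5:**
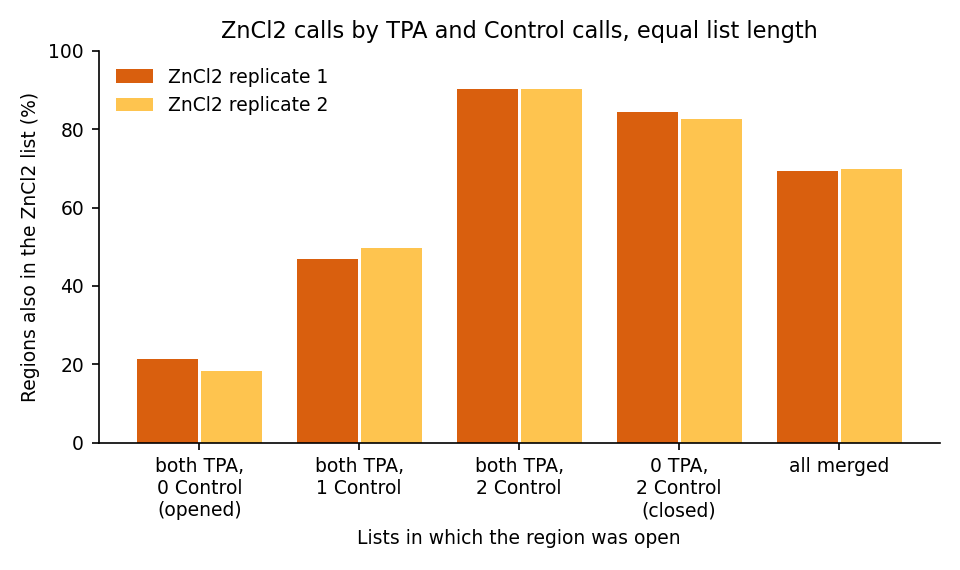
Share of regions also in the kept list of ZnCl2 replicate 1 and replicate 2 (bars, y axis in percent from 0) by the TPA and control lists in which the regions were open (x axis). The shares rise from 21.4% and 18.4% of the opened regions to 90.2% and 90.1% of those in both control lists, and the 2 replicates differ by at most a few percentage points in each class.

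The gap between opened and shared regions was also present among weaker regions, and regions with 1 control list were not split further. With the worse TPA rank beyond 14540.2, 17.9% and 16.2% of 736 opened regions were in the ZnCl2 lists, against 80.01% and 80.8% of 2176 shared regions. This gap was present in each GC band too. Under 40% GC the shares were 6.09% and 9.64% of opened and 61.9% and 70.7% of shared regions, and at 55% GC or more they were 40.1% and 27.3% against 97.9% and 95.8%. Without control replicate 2 in the rule, the mean share over the ZnCl2 lists was 36.1%, and without control replicate 1 it was 30.1%, against 19.9% with both. With all regions of every list in place of the equal length, this mean share was 10.9%. In the full list of ZnCl2 replicate 1, 848 opened regions (86.4%, against 94.9%) had a call, with a median rank of 24411.5.

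Opened regions in both ZnCl2 lists were richer in GC than those in neither, and wider as merged. A merged region can widen with each list that holds it, so these widths and promoter overlaps can be raised by the merging itself. Widths of the best single call were not split by ZnCl2 list. The 97 in both ZnCl2 lists had a median GC content of 48.8%, a median width of 1941 bases, and 17.5% overlapped a promoter. The 688 in neither list had 44.1% GC, a width of 1210 bases, and 9.01% overlapped a promoter. Their AP-1 shares were 51.5% and 54.1%. The 113 in ZnCl2 replicate 1 only had 48.0% GC and the highest promoter share, 23.9%. The 84 in ZnCl2 replicate 2 only had 44.7% GC and a promoter share of 10.7%, near those in neither list, but a width of 1750 bases, near those in both. GC box letters were in 18.6% of the regions in both lists, 23.01% in ZnCl2 replicate 1 only, 20.2% in ZnCl2 replicate 2 only and 9.01% in neither. ZMYND11, CFAP99 and ANXA8, all with repeated pieces, were the best ranked in both ZnCl2 lists, and NPIPB11, TBPL1 and UBXN6 the best ranked in neither. The NPIPB11 region at chr16:29405291-29405890, in a gene of a duplicated family, ranked 2936 and 3311 with TPA and 21681 in control replicate 1, with no other call.

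Several opened regions lay together. When opened regions less than 100000 bases apart were chained, 829 stood alone, 62 chains had 2, 7 had 3 and 2 had 4. RIPK4, a kinase of epidermal differentiation, had 4 opened regions in 26170 bases at chr21:41760951-41787120, and no other merged region lay between them. The region over its promoter ranked 15584 and 17911 with TPA, 18963 and 20792 in the controls and 20915 in ZnCl2 replicate 1. The most upstream of the 4, with an AP-1 match, ranked 10611 and 10044 with TPA, 21371 and 22845 in the controls and 31486 in ZnCl2 replicate 1. The promoter region of RIPK4 was thus near the limit in control replicate 1, and the upstream one was far from it in both controls.

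JAG1 encodes a Notch ligand. Between SLX4IP and JAG1, at chr20:10507971-10668190, 4 of 12 merged regions were opened, 2 were shared by both groups and none was closed, and 3 of the 4 held AP-1 letters. An intronic SLX4IP region there, at chr20:10603931-10605230 and nearest to the JAG1 start site, ranked 7090 and 8029 with TPA, 19646 and 20601 in the controls and 25163 in ZnCl2 replicate 1. GSX2, a homeobox gene of the forebrain, had 3 opened regions upstream at chr4:54081761-54092750. CRIM1, which encodes a membrane protein that binds BMP ligands, had 3 in its introns at chr2:36370991-36404730. For both genes these were the only merged regions of the interval. Around TGM2, tissue transglutaminase, and KIAA1755, 3 of 4 merged regions at chr20:38167851-38218930 were opened and 1 was shared. The one nearest to TGM2, 2308 bases upstream, ranked 8380 and 8174 with TPA, 21837 and 29463 in the controls and 28248 in ZnCl2 replicate 1.

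By nearest start site, 883 protein-coding genes had an opened region of 12589 with any merged region (7.01%), and 1142 (9.07%) had a closed one. Of the 883, 795 had 1, 78 had 2, 9 had 3 and 1, RIPK4, had 4. The nearest gene is a label of position, and whether a region acts on it was not measured. In 18 gene lists with 233 genes, 206 genes had a merged region, 24 had an opened and 24 a closed one, and 26 of 633 regions were opened (4.11%, against 3.75% of all merged regions). Counted by regions, the lists as a whole were close to the background. Counted by genes, 24 of 206 is a larger share than the 7.01% of all coding genes, which was not tested. The 206 genes held 633 merged regions, which is more per gene than the 26162 regions over 12589 genes. The share by genes was not adjusted for this.

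Of the regions nearest to genes of Zn2+ handling, 0 of 7 at metallothioneins, 0 of 14 at exporters and 1 of 28 at importers (3.57%) were opened. Over all merged regions the share was 3.75%, so that nothing about these genes is read from such small counts. Of the 6 metallothionein genes with a merged region, 2 had a closed one, against 9.07% of all coding genes with a region. The importer was SLC39A10, an importer of Zn2+ at the cell surface, with an intronic region at chr2:195622481-195623400 that ranked 14982 and 13547 with TPA, 24617 in control replicate 2 and 34887 in ZnCl2 replicate 1. Its window held 1 repeated piece and no AP-1 letters.

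Of the regions nearest to genes of the EGF receptor list, 5 of 41 (12.2%, against 3.75% of all merged regions) were opened and 2 were closed. ERRFI1, EGFR, TGFA, NRG1 and AREG, which are the receptor, its feedback inhibitor ERRFI1 and 3 ligands of the family, each had 1. In an EGFR intron the region at chr7:55064841-55066290 ranked 15264 and 15774 with TPA, 21820 and 28630 in the controls and 30051 in ZnCl2 replicate 1. Upstream of ERRFI1, chr1:8040317-8041156 ranked 15047 and 11955 with TPA, 22764 in control replicate 2 and 31487 in ZnCl2 replicate 1. Upstream of TGFA, chr2:70596121-70597350 ranked 16466 and 15808 with TPA, 19619 and 24502 in the controls and 18379 in ZnCl2 replicate 1. The ERRFI1 and EGFR regions held AP-1 letters and were in neither kept ZnCl2 list, while the TGFA region had no match and was in that of ZnCl2 replicate 1. These are 5 regions in a list chosen with earlier results known.

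Basal epithelial identity genes had 6 of 68 regions opened (8.82%, against 3.75% of all merged regions) and 2 closed. The opened ones were near KRT17, TFAP2A (2 regions), GRHL2, KRT6A and TP63. At the promoter of KRT17, a keratin of basal and stressed epithelium, chr17:41623031-41626860 ranked 8350 and 10524 with TPA, 23984 and 24912 in the controls and 16627 in ZnCl2 replicate 1, and 1 of its pieces was repeated. Downstream of TFAP2A, a transcription factor of the epidermis and mammary gland, the nearer region at chr6:10347501-10348400 ranked 15486 and 14012 with TPA, 20737 and 24647 in the controls and 21806 in ZnCl2 replicate 1. The farther one, at chr6:10247891-10248850, ranked 13970 and 16002, 21402 and 26186, and 36291 in the same libraries. Both TFAP2A regions had AP-1 letters.

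Genes of the epithelial-mesenchymal transition had 4 of 47 regions opened (8.51%, against 3.75% of all merged regions) and 1 closed. The opened ones were near CDH2 (2 regions), PRRX1 and CDH1. CDH1 encodes E-cadherin, the adhesion protein of epithelial junctions, and an intronic region at chr16:68755441-68756990 ranked 13314 and 16238 with TPA, 23840 in control replicate 2 and 26033 in ZnCl2 replicate 1. The region near PRRX1, a mesenchymal homeobox gene, at chr1:170623111-170623750 ranked 16083 and 12353 with TPA, 19845 and 20600 in the controls and 28654 in ZnCl2 replicate 1. The better ranked region assigned to CDH2, N-cadherin, at chr18:29163961-29165600 ranked 15089 and 14721 with TPA, 22119 in control replicate 2 and 29004 in ZnCl2 replicate 1. It lay 986835 bases from the start site and had no AP-1 letters.

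Of the AP-1 genes themselves, FOSL1 and MAFF had an opened region each, 2 of 39 regions (5.13%, near the 3.75% of all merged regions). Upstream of FOSL1, which encodes the AP-1 subunit FRA1, chr11:65902511-65910090 ranked 11753 and 11577 with TPA, 21369 and 25136 in the controls, and 18859 and 16970 with ZnCl2, with 2 repeated pieces. The region assigned to MAFF, a small MAF protein, lay in an intron of PLA2G6 at chr22:38176801-38178700 and ranked 5882 and 14981 with TPA, 22366 and 34488 in the controls, and 16112 and 18305 with ZnCl2. Unlike the EGFR and TFAP2A regions, both were in both ZnCl2 lists. Among immediate early genes, which respond first to growth factors, 2 of 75 regions (2.67%, also near it) were opened, so that the regions of both lists are given as single examples. Upstream of DUSP5, a phosphatase of ERK, chr10:110414281-110415210 ranked 7718 and 8074 with TPA, 21117 and 25119 in the controls and 25256 in ZnCl2 replicate 1. The KLF6 region at chr10:3761921-3764680 ranked 16669 and 16723, 21824 and 27082, and 22169 in the same libraries.

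In the heat shock list 1 of 15 regions (6.67%) was opened, in the NF-kB list 1 of 29 (3.45%) and in the YAP and TEAD list 1 of 36 (2.78%), against 3.75% of all merged regions, and they are given as single examples. Upstream of HSPB1, the small heat shock protein HSP27, chr7:76299891-76300880 ranked 6861 and 14475 with TPA, 24931 and 26378 in the controls and 33854 in ZnCl2 replicate 1. Downstream of NFKBIA, the inhibitor of NF-kB, chr14:35365052-35366411 ranked 8167 and 9936 with TPA, 25669 in control replicate 2 and 18446 in ZnCl2 replicate 1. The region assigned to AMOTL2, a partner and target of YAP, at chr3:134308931-134321650 ranked 7424 and 10473 with TPA, 20439 and 19096 in the controls and 17898 in ZnCl2 replicate 1. All 3 held AP-1 letters. The glucocorticoid list had ERRFI1 and SGK1 (2 of 56 regions, 3.57%), the TGF-beta list TGFB2 (1 of 89, 1.12%) and the ribosomal protein list RPS27 (1 of 29, 3.45%), at or below the 3.75% of all merged regions. No opened region was nearest to a gene of the NRF2 list, of 11 with a merged region, of the p53 targets, of 12, of CTCF and cohesin, of 10, or of the matrix metalloproteinases and their inhibitors, of 9. Over all protein-coding genes with a merged region 7.01% had an opened one, and nothing is read from a count of 0 in lists of this size.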

How the data were processed

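Accessibility was measured by ATAC-seq in 6 libraries, grouped by the treatment in the sample labels as 2 control, 2 TPA and 2 ZnCl2. The authors removed adapters (BBDuk), aligned the pairs to hg38 (HISAT2 2.1.0, SAMtools 1.8, FastQC 0.11.8) and called open regions in each library separately with HMMRATAC. Each library had been sequenced in more than 1 run, and the runs were combined. The deposited score of a region is the caller's whole number, at least 30, whose kind and whose caller version are not given in the sources used here. The authors' later merging with muMerge, removal of blacklisted regions and DESeq2 test need reads or lists that were not used here. Their methods call the replicates biological and their results technical, so the spread between libraries may be technical.

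Regions on chromosomes 1 to 22 and X were kept, which left out 74 and 89 (TPA), 113 and 187 (control) and 217 and 170 (ZnCl2) on other contigs. The 18887 highest scores were kept (ties: wider, then position), at scores of at least 49 and 54 (TPA), 36 and 60 (control) and 52 and 30 (ZnCl2), and merged over the libraries as bedtools 2.31.1 did. A list held a region when at least 1 base overlapped. Genes were the 40050 of 62700 GENCODE release 44 genes that RefSeq also lists, 19206 of them protein-coding. A region was repeated when one of 8 pieces of 50 bases in its window of 400 bases occurred again in the genome. Motif letters were searched on both strands of that window, centered on the best-ranked call.

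No test was made on the regions, since they were chosen by calls in the same libraries. The members, motifs and gene lists were chosen with earlier results of these data known. Regions were named by rule as the 10 with the best worse TPA rank, the best 3 in both and in neither ZnCl2 list, the best 5 over coding promoters, the 5 loci with most opened regions, at most 3 per gene list, and 3 on each side of the limit. Other genes were named to complete small counts. Sequences were the central 200 bases of up to 8 named regions without a repeated piece, and the UBXN6 window, which overlaps an untranslated exon, is not printed. Alternatives were list length, tie order, merging, overlap, promoter, annotation, window and motif definitions, repeats, each library left out and the replicate number as a block. The code was checked on simulated calls with planted regions far from the limit, which does not show how the rule treats regions near it. Computation used Python 3.11.15, pysam 0.24.0, samtools 1.23.1, SciPy 1.17.1, Matplotlib 3.10.9, pandas 2.3.3 and NumPy 2.4.6.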

Additional observations from a re-analysis of the deposited data

How the results depend on the processing

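Several values moved with the list length by more than the spread between replicate numbers. The other classes of regions were not recomputed at these lengths. With all regions of every list, the ZnCl2 share was 10.9%, the median GC content 44.1%, the width 940 bases, the promoter share 5.25% and the distance to a start site 53020 bases. With the 10000 highest scores there were 811 opened regions in place of 982. Their GC content was 47.4%, width 1530 bases, distance 39118 bases and AP-1 share 48.7%. Start sites of all annotated genes gave a distance of 22025 bases, and a window of 200 bases an AP-1 share of 35.3%. With the control lists at full length, an alternative added after seeing the data, 20 regions were left, with 46.9% GC, 975 bases, 53617 bases and 45% with AP-1 letters. Leaving out each library in turn gave 987 to 2015 regions, a ZnCl2 share of 15.6% to 36.1%, GC content of 44.5% to 46.2%, width of 1110 to 1450 bases, promoter share of 11.1% to 17.2%, distance of 42483 to 49433 bases and AP-1 share of 48.4% to 53.7%. Of 60 other alternative values over 7 results, 42 were counted as unmoved. The limit was that spread, except for the number of regions, which was judged by a wider limit that 811 regions met. The causes were not tested. Without reads, the depth behind a call is unknown, so a missing call is not closed chromatin.

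The replicate numbers were also used as a block, counting regions open in TPA and not in control within each number. This gave a mean of 3105 regions per number and a ZnCl2 share of 27.6%. GC content was 45.3%, width 1380 bases, promoter share 14.4%, distance 44585.5 bases and AP-1 share 50.1%. Over 15861 regions, the rank differences between replicates 1 and 2 correlated with r = 0.146 between TPA and control, 0.0416 between TPA and ZnCl2 and 0.0289 between control and ZnCl2, across regions that are not independent, so the numbers were not taken to pair the libraries.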

Other observations

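Opened regions were spread over all chromosomes examined. The share of merged regions that were opened was highest on chromosome 18 (6.26%, 29 of 463), followed by chromosomes 10 (5.34%), 2 (5.32%) and 7 (5.10%). It was lowest on chromosomes 19 (2.21%), 15 (2.24%) and X (2.48%), against 3.75% over all merged regions.

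Of the 20 opened regions without a call in either full control list, 8 (40%) held repeated pieces, against 6.31% of all 982 and 10.8% of all merged regions. AP-1 letters were in 9 of the 20 (45%), against 53.4% of all 982 and 31.4% of all merged regions. Both ZnCl2 lists held 3 of the 20, against 9.88% of all 982 and 59.3% of all merged regions. In neither ZnCl2 list were 14, against 70.1% and 20.2%. Nothing is read from these small counts.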
